A study of Mus musculus with 2 samples.

Results

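The genes described here are 39 genes of the cell division cycle, chosen by name from the 32285 features of the deposited matrices. They comprise 17 genes of DNA replication (Mcm2 to Slbp), 19 genes of mitosis (Mki67 to Nusap1), and Hmgb2, Tubb5 and Stmn1, 3 genes that dividing cells express strongly and many resting cells express as well. All 39 were found by symbol in both matrices. Their UMI counts (unique molecular identifiers, each standing for 1 captured RNA molecule) were summed in 5 classes of cell barcodes.

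The study profiled mouse liver tumours by droplet single-cell RNA sequencing, with 1 library labelled shCtrl (genotype label WT) and 1 labelled shSrsf10, the latter from tumours with a short hairpin RNA against Srsf10, a splicing factor of the SR-like family. Both libraries carry the tissue label tumour, and the tumour model, the age of the mice and the number of mice pooled in each library are not given in the sources used here. The labels conflict on how the cells were made: the series text names a digest of tumours, flow sorting with no stated gate and a 5' kit, while the sample text names a slow spin of liver cells that removes hepatocytes and a 3' kit. With 1 library per group there is no replicate and no test. Each interval below is a 95% interval that covers counting error only, and a gene is called higher or lower where its level differed by at least 1.5-fold with at least 20 UMIs over both libraries.

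The shCtrl library held 9920 barcodes and 143327661 UMIs, and the shSrsf10 library 7553 barcodes and 136419902 UMIs. The libraries shared 67 barcode sequences, 24 of them in the same class. Srsf10 itself was at 45.5 CPM (counts-per-million, the gene's UMIs over all UMIs of the class) in shCtrl and 19.7 CPM in shSrsf10 tumour barcodes, a log2 ratio of -1.21 (interval -1.28 to -1.14). Its log2 ratio lay between -0.88 and -0.61 in the 4 immune classes. Here and throughout, a log2 ratio is the level in shSrsf10 over that in shCtrl.

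A cell that commits to division releases E2F transcription factors from the retinoblastoma protein, and E2F drives the genes that license and copy DNA. Later, the MuvB complex with B-Myb and FoxM1 drives the mitosis genes through a short promoter element, the CHR. Many of their promoters also hold another short element, the CCAAT box. Adult liver cells rarely divide, whereas liver tumour cells and T cells that have met antigen do, so both gene lists are widely read as a record of cycling cells.

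The promoters show this division of the lists in their letters. RefSeq windows from 250 bases before to 50 bases after the start (build GRCm38.p6) were on hand for 31 of the 39 genes. The E2F letters searched, on both strands, were TTTCCCGC, TTTCGCGC, TTTGGCGC and TTTGCCGC, and 7 of 14 replication genes and 1 of 15 mitosis genes, Cdk1, held one, against 2.6% of all 27025 genes with a window. These E2F counts cover the whole window. In the stretch from 100 bases before to 50 after the start, 4 of 14 replication genes, 0 of 15 mitosis genes and 1.45% of all genes held one. The CHR was searched as TTTGAA and as the variant TTCGAA. In that shorter stretch these letters occurred in 11 of 15 mitosis genes and 1 of 14 replication genes, against 9.87% of all genes. Over the whole window they occurred in 11 of 15 mitosis genes, 2 of 14 replication genes and 21.7% of all genes. The letters CCAAT occurred in 13 of 15 mitosis genes, 10 of 14 replication genes and 41.1% of all genes over the whole window. A match describes the letters and does not show that a factor binds. The next 4 sequences are the replication promoters with an E2F match ahead of the start that had the most tumour UMIs, printed 5′ to 3′ on the gene's strand up to the base before the start, with E2F matches alone in capitals.
Mcm7 (chr5:138171884-138172058, minus strand): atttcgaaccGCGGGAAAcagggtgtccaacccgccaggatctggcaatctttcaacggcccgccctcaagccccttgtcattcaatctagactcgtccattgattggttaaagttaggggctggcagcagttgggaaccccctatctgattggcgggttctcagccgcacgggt
Mcm6 (chr1:128359706-128359825, minus strand): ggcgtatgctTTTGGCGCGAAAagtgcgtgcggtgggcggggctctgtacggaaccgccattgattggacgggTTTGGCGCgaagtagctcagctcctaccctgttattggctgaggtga
Mcm5 (chr8:75109346-75109508, plus strand): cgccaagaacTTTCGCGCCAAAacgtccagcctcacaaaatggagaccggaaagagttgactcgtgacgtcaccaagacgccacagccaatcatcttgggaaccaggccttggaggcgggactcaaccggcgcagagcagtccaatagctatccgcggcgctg
Uhrf1 (chr17:56304118-56304312, plus strand): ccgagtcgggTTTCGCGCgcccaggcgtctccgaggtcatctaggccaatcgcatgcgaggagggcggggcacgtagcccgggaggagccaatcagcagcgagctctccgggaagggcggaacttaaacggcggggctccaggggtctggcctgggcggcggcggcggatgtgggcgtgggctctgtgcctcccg

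In Mcm6 the capitals hold 3 matches, of which the first pair overlap on opposite strands. The following 4 sequences are the mitosis promoters with the most tumour UMIs among those with a CHR or CCAAT match, with CHR and CCAAT matches on either strand in capitals, so that a reverse-strand match reads TTCAAA for the CHR and ATTGG for the CCAAT box.
Ube2c (chr2:164769691-164769928, plus strand): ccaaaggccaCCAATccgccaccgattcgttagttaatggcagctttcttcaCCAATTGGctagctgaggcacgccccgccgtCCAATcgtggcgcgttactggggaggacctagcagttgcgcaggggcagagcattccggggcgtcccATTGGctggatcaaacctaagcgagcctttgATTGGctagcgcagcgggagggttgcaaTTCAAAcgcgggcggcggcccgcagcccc
Cdk1 (chr10:69352913-69353130, minus strand): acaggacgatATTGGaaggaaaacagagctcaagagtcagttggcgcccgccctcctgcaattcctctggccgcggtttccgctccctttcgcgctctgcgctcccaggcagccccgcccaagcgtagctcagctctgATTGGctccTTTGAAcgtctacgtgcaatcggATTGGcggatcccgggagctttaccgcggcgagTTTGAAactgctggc
Cdc20 (chr4:118437344-118437406, minus strand): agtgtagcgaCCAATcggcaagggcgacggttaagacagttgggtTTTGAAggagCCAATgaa
Top2a (chr11:99024190-99024426, minus strand): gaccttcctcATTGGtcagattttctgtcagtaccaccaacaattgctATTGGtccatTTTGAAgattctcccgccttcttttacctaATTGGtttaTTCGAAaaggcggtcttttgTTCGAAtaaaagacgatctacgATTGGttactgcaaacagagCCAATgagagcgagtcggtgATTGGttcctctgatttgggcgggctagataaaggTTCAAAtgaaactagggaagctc

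Cdc20 shows the arrangement at its shortest, with a CHR between a pair of CCAAT boxes ahead of the start. Top2a and Ube2c carry several CCAAT boxes in either orientation. The promoters are shown as background to the lists, and no relation between these letters and the ratios below was tested.

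The classes were checked against markers. Tumour barcodes had at least 5000 UMIs, at least 5 UMIs of the keratins Krt8 and Krt18 and no Ptprc, the pan-leukocyte gene. There were 6462 of them in shCtrl, with a median of 18174.5 UMIs, and 3765 in shSrsf10, with a median of 27498. All 8 epithelial and liver markers were detected in them, at a summed 8081 and 7875 CPM. Krt8 and Krt18 of the class rule are among these 8, so the sum is partly set by the rule. All 8 T cell and all 8 macrophage markers were detected as well, so detection alone does not set the class apart. The summed level of 8 T cell markers in tumour barcodes was 5.09 CPM in shCtrl and 23.1 CPM in shSrsf10.

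T barcodes had at least 2 UMIs of Cd3d, Cd3e and Cd3g, and were split by Cd8a and Cd8b1. The CD8 T class held 127 and 1192 barcodes in shCtrl and shSrsf10, the other T class 259 and 915, the monocyte class (Lyz2 without C1q) 147 and 153, and the macrophage class (C1q) 494 and 180. In every one of these immune classes, barcodes with at least 5 keratin UMIs held between 44.6% and 61.4% of the UMIs. Tumour RNA therefore enters the sums of the immune classes, and their values are given both for all barcodes and for those with at most 1 keratin UMI, a limit chosen after the data were seen. The monocyte class does not read as monocytes alone. Its 6 neutrophil markers, S100a8 and S100a9 among them, summed to 19420 CPM in shCtrl and 12690 CPM in shSrsf10, and it is called the Lyz2 class from here on.

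In tumour barcodes the 19 mitosis genes summed to 993.8 CPM in shCtrl (interval 988.5 to 999.2) and 1181 CPM in shSrsf10 (1175 to 1187), a log2 ratio of 0.25 (0.24 to 0.26). The 17 replication genes summed to 642.9 CPM in shCtrl and 695.1 CPM in shSrsf10, a log2 ratio of 0.11 (0.10 to 0.13). Both sums were thus higher in shSrsf10, the mitosis sum more so, and by less than the fold that counts as a call. No member was called in either direction, where 9.59% of the 15005 features tested were called higher and 12.4% lower. The median log2 ratio was 0.13 over the mitosis genes and 0.09 over the replication genes, beside -0.05 over all features. The intervals of 9 replication genes lay above 0 and of 3 below it, and those of 11 mitosis genes lay above 0 and of 6 below it.

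**Figure D1:**
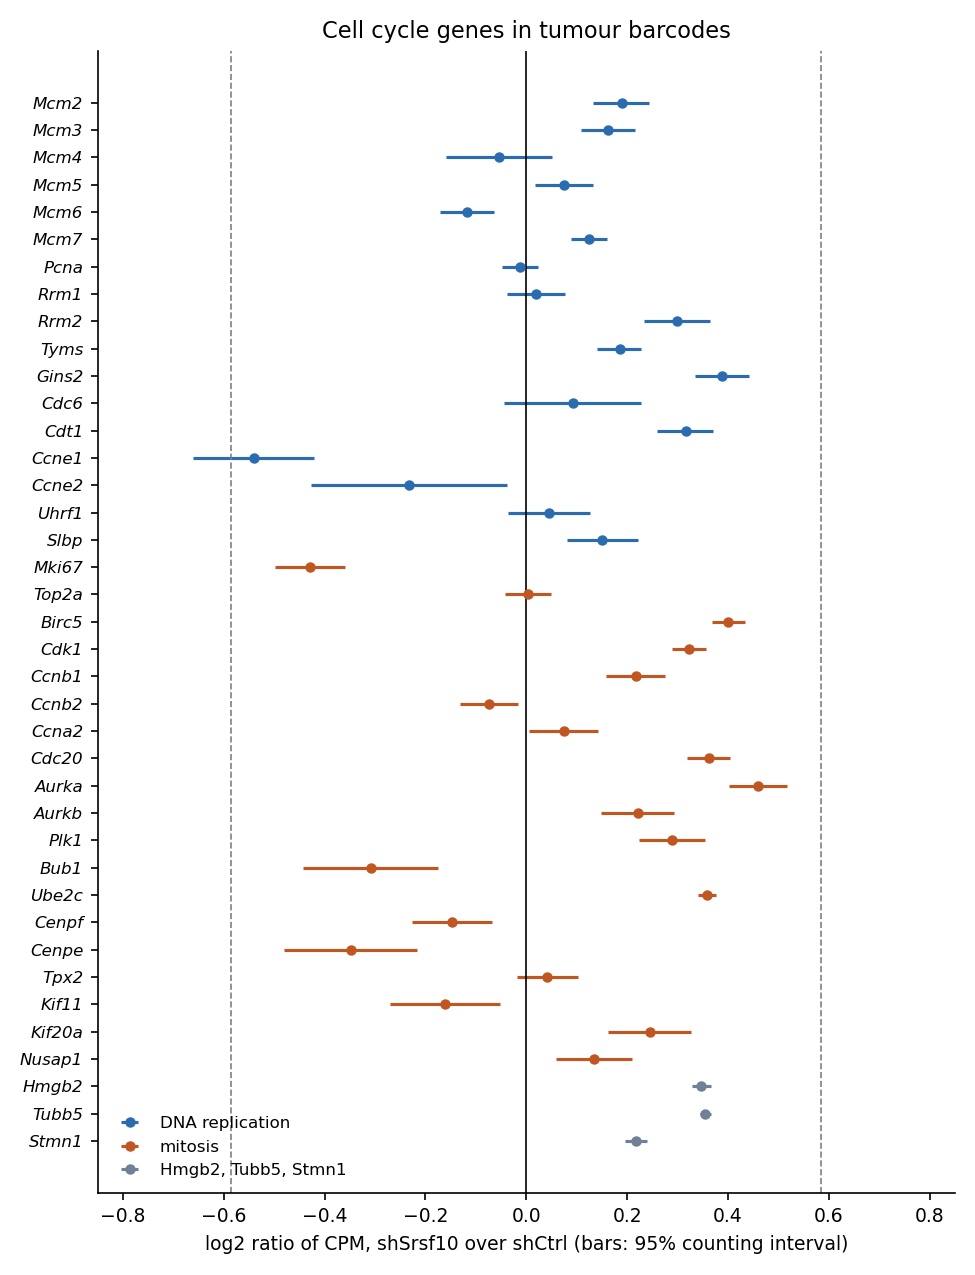
Log2 ratio of CPM (shSrsf10 over shCtrl) of the 39 genes in tumour barcodes, with 95% counting intervals from 1 library per group. Dashed lines mark 1.5-fold, which no gene reached. Aurka (0.46) is the highest point and Ccne1 (-0.54) the lowest.

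Among the replication genes, the helicase that opens the DNA is the MCM2 to MCM7 ring. Its most counted subunit, Mcm7, stood at 92.9 CPM in shCtrl and 101.3 CPM in shSrsf10 tumour barcodes, a log2 ratio of 0.12. The 6 MCM genes were spread on both sides of 0, from -0.12 for Mcm6 to 0.19 for Mcm2. Loading of the ring needs Cdc6 and Cdt1. Cdt1 was at 37.7 and 46.9 CPM (log2 ratio 0.32, 0.26 to 0.37) and Cdc6 at 6.74 and 7.18 CPM (0.09, -0.04 to 0.23). Gins2, a subunit of the active helicase, was the highest replication gene, at 38.7 and 50.7 CPM (log2 ratio 0.39, 0.34 to 0.44). Loading and helicase factors thus ranged from slightly lower to about 0.39 higher on the log2 scale.

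Pcna, the sliding clamp of the polymerases, was at 100 CPM in shCtrl and 99.2 CPM in shSrsf10, a log2 ratio of -0.01 (-0.05 to 0.02), and the libraries could not be told apart by counting. The nucleotide enzymes differed among themselves. Rrm2, the small subunit of ribonucleotide reductase that is limited to S phase, was at 27.5 and 33.9 CPM (log2 ratio 0.30), and Rrm1, the large subunit, at 38.4 and 38.95 CPM (0.02). Tyms, which makes thymidylate, was at 62.9 and 71.5 CPM (0.18). Uhrf1, which carries DNA methylation through replication, had a log2 ratio of 0.04, and Slbp, which binds histone messenger RNA, 0.15. Only the small reductase subunit and Tyms among these had intervals above 0.1.

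The E-type cyclins, which start S phase with Cdk2, were, with Mcm6, the replication genes whose intervals lay below 0. Ccne1 stood at 11.2 CPM in shCtrl (10.7 to 11.8) and 7.70 CPM in shSrsf10 (7.21 to 8.22), on 1504 and 911 UMIs, a log2 ratio of -0.54 (-0.66 to -0.42). Ccne2 stood at 3.79 and 3.23 CPM, a log2 ratio of -0.23 (-0.43 to -0.04). Ccne1 passed 1.5-fold in 2 alternatives, at -0.61 without the barcodes with the highest doublet scores and -0.60 relative to genes of like transcript length. In depth ranges its log2 ratio was 0.16 (-0.76 to 0.99) from 5000 to 10000 UMIs per barcode, -0.30 (-0.67 to 0.05) from 10000 to 20000, -0.96 (-1.15 to -0.77) from 20000 to 40000, and -0.56 (-0.77 to -0.35) above.

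Of the mitotic kinases and cyclins, Aurka, which matures the spindle poles, was the highest of all members, at 33.1 CPM in shCtrl and 45.5 CPM in shSrsf10 (log2 ratio 0.46, 0.40 to 0.52). Cdk1, the mitotic kinase, was at 100.3 and 125.5 CPM (0.32, 0.29 to 0.36). Its cyclin partners did not move alike: Ccnb1 had a log2 ratio of 0.22, Ccna2 0.07 and Ccnb2 -0.07. Plk1 (0.29) and Aurkb (0.22), further mitotic kinases, were higher in shSrsf10. Bub1, a kinase of the spindle checkpoint, was lower, at 8.21 and 6.63 CPM (-0.31, -0.44 to -0.18).

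Genes of the anaphase-promoting complex held much of the mitosis sum. Ube2c, its ubiquitin-conjugating enzyme, gave 33.3% of the list's UMIs in shCtrl and 35.9% in shSrsf10, at 331.1 and 424.5 CPM (log2 ratio 0.36, 0.34 to 0.38). The other 18 mitosis genes summed to 662.7 and 756.7 CPM, a log2 ratio of 0.19 (0.18 to 0.20). Cdc20, its activator, was at 62.1 and 79.9 CPM (0.36), and Birc5, survivin of the chromosomal passenger complex, at 100.7 and 133 CPM (0.40, 0.37 to 0.43).

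The structural and motor proteins of mitosis were divided. Mki67, the coat of mitotic chromosomes and the standard stain for dividing cells, was at 31.8 CPM in shCtrl and 23.6 CPM in shSrsf10, a log2 ratio of -0.43 (-0.50 to -0.36). The kinetochore genes Cenpe (-0.35) and Cenpf (-0.15) and the spindle motor Kif11 (-0.16) were lower, and Top2a, which untangles the sister DNA, had a log2 ratio of 0.00 (-0.04 to 0.05). The spindle genes Tpx2 (0.04) and Nusap1 (0.14) and the motor Kif20a (0.24) lay at or above 0. Mki67 and Birc5, a pair often read as equivalent markers of division, therefore pointed in opposite directions in the same barcodes. Hmgb2, a chromatin protein, was at 303.9 and 386.7 CPM (0.35), Tubb5, a tubulin, at 900.2 and 1152 CPM (0.36), and Stmn1, a tubulin-binding protein, at 243.1 and 282.7 CPM (0.22).

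The split among the mitosis genes ran with transcript length. Across the 19 mitosis genes in tumour barcodes, Spearman's rho between the length of the longest coding transcript (GENCODE vM21) and the log2 ratio was -0.62, and across the 17 replication genes it was -0.07. These are descriptions across genes of the same pair of libraries. The same slope ran through all genes: rho was -0.35 over 13070 features, and the median log2 ratio was 0.11 for transcripts up to 1500 nt, 0.06 from 1500 to 3000 nt, -0.16 from 3000 to 5000 nt and -0.33 above 5000 nt. Mki67 (10061 nt), Cenpf (11130 nt) and Cenpe (7910 nt) are the longest transcripts of the lists. Relative to the median of its length class, Mki67 had a log2 ratio of -0.10 in tumour barcodes in place of -0.43. The source of the slope was not tested.

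**Figure D2:**
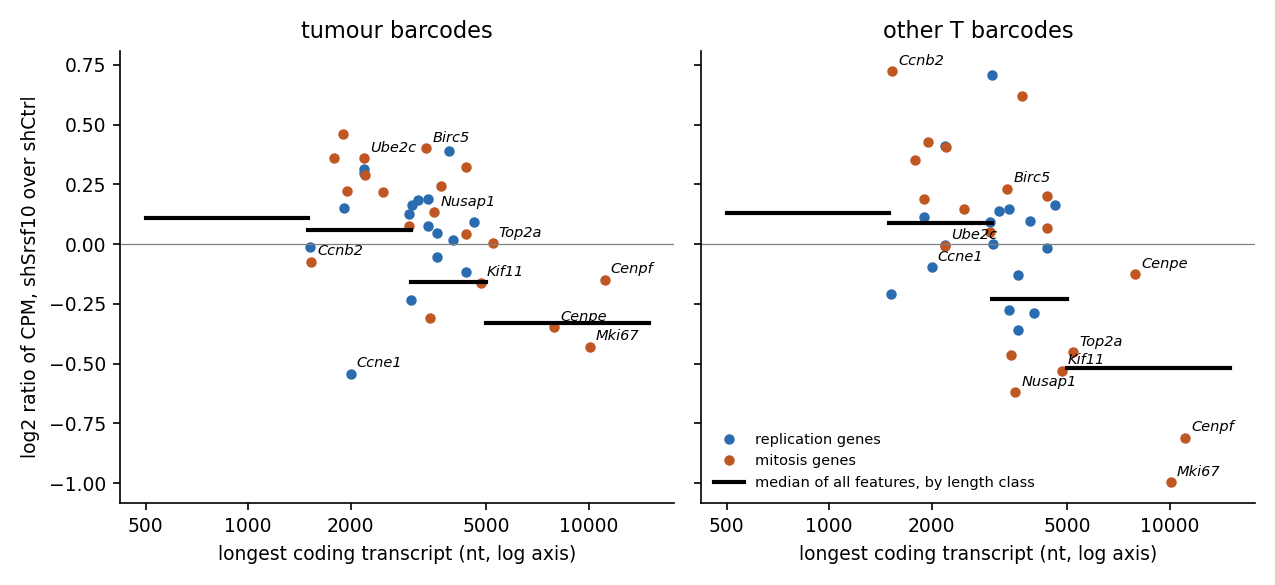
Log2 ratio of CPM (shSrsf10 over shCtrl) against the longest coding transcript in nt, on a log axis, for replication genes (blue) and mitosis genes (orange) in tumour and other T barcodes; black bars are medians of all features by length class. In both classes the all-feature medians fall from 0.11 or 0.13 in the shortest transcripts to -0.33 or -0.52 in the longest, and Mki67 lies at the long end, at -0.43 and -0.996.

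Depth of the barcodes also moved with the result. Tumour barcodes were deeper in shSrsf10, and in either library the mitosis level was highest in the deepest barcodes, at 1398 CPM in shCtrl and 1450 CPM in shSrsf10 from 40000 UMIs. Within depth ranges chosen after the data were seen, the log2 ratio of the mitosis sum was 0.50 (0.42 to 0.57) from 5000 to 10000 UMIs, 0.25 (0.22 to 0.28) from 10000 to 20000, -0.10 (-0.12 to -0.09) from 20000 to 40000 and 0.05 (0.03 to 0.07) above. For the replication sum it was 0.32, 0.09, -0.14 and 0.13 in the same order. The direction of both sums therefore turned in the range from 20000 to 40000 UMIs, which holds 2347 shCtrl and 1656 shSrsf10 barcodes. Birc5 was higher in shSrsf10 in all 4 ranges, with log2 ratios from 0.10 to 0.77, and Mki67 lower in all 4, from -0.58 to -0.18, though its interval reached above 0 in the shallowest range. The part of depth in the result was not tested beyond these ranges.

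**Figure D3:**
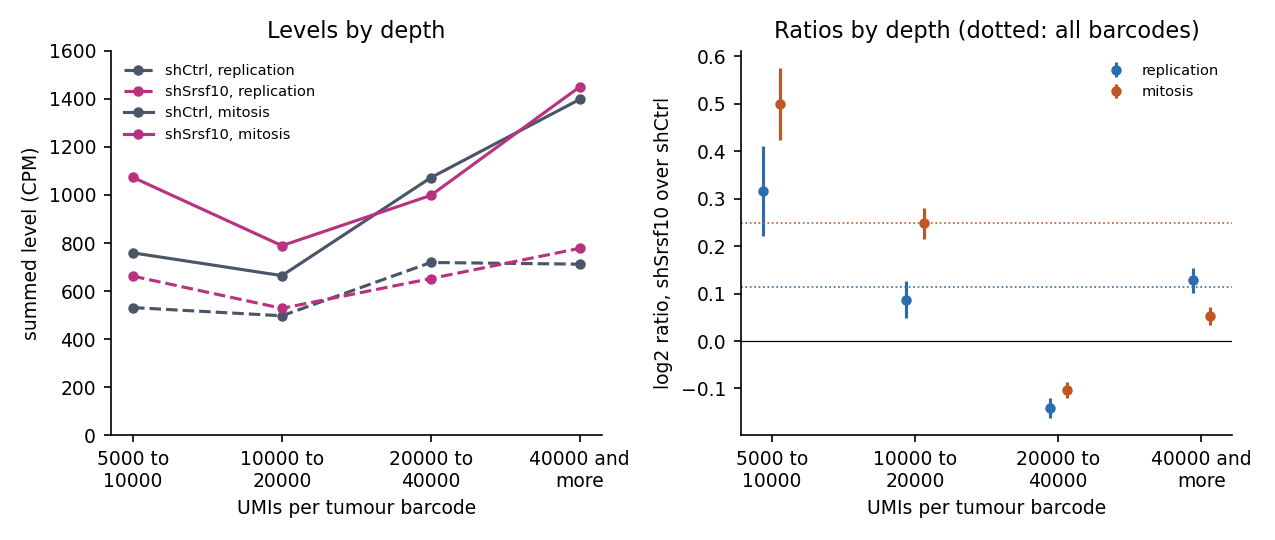
Left, summed CPM of the replication and mitosis genes in tumour barcodes by UMIs per barcode, in each library; right, the log2 ratio of shSrsf10 over shCtrl with 95% counting intervals, and dotted lines at the ratio over all tumour barcodes (0.11 and 0.25). The ratios run from 0.50 for mitosis in the shallowest range to -0.14 for replication between 20000 and 40000 UMIs.

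Counting barcodes instead of UMIs gave the same direction for tumour cells. Each tumour barcode was thinned at random to 5000 UMIs, which kept all of them. At least 3 mitosis UMIs were then found in 41.5% of shCtrl barcodes (exact binomial interval 40.3% to 42.7%) and 49.4% of shSrsf10 barcodes (47.8% to 51.0%). At least 3 replication UMIs were found in 43.8% and 50.2%. Near the limit, 342 shCtrl and 246 shSrsf10 barcodes had exactly 3 mitosis UMIs, and 580 and 287 had 2.

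Replication and mitosis UMIs sat largely in the same tumour barcodes. Both lists reached 3 UMIs in 29.1% of shCtrl and 35.6% of shSrsf10 barcodes, only replication in 14.7% and 14.6%, only mitosis in 12.4% and 13.8%, and neither in 43.8% and 36.0%. The difference between the libraries thus lay in the barcodes with both lists and with neither. The 646 shCtrl and 376 shSrsf10 barcodes richest in mitosis UMIs held 44.1% of them in shCtrl and 39.3% in shSrsf10, and the same numbers of barcodes richest in replication UMIs held 32.4% and 29.5% of those. Mitosis RNA was therefore more concentrated than replication RNA in both libraries. Before thinning, barcodes with both lists had a median of 21736 UMIs in shCtrl and 32129 in shSrsf10, against 16247 and 23068 for barcodes with neither.

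**Figure D4:**
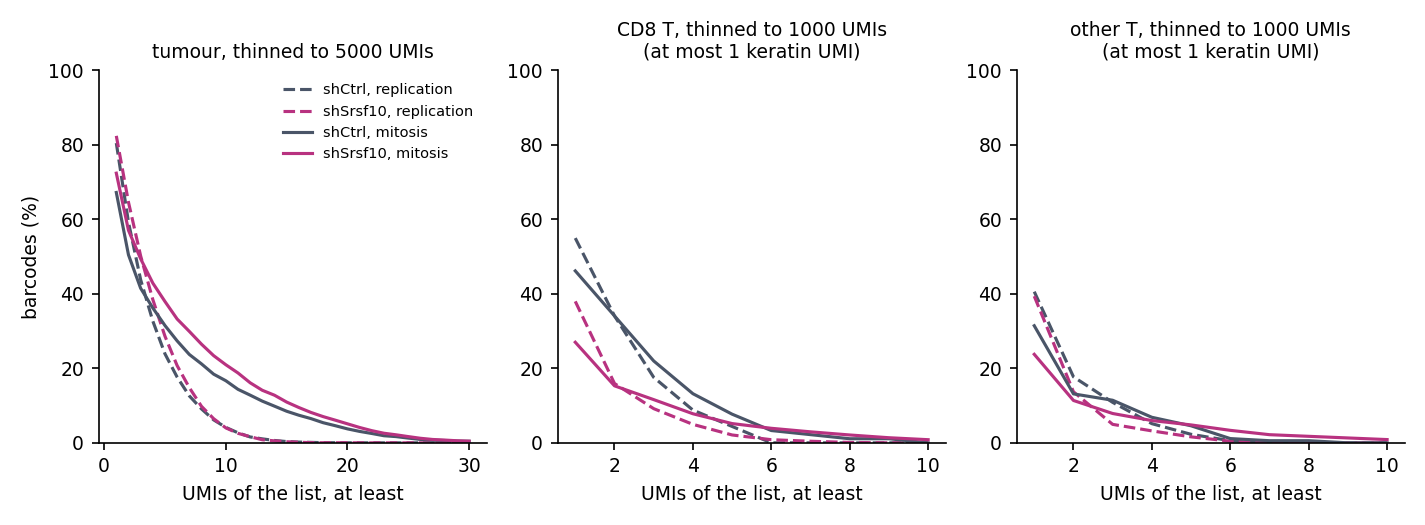
Share of barcodes (%) with at least the number of UMIs on the x axis, for the replication list (dashed) and the mitosis list (solid), after thinning tumour barcodes to 5000 UMIs and T barcodes with at most 1 keratin UMI to 1000. In tumour barcodes the shSrsf10 mitosis curve lies above shCtrl (49.4% against 41.5% at 3 UMIs), and in CD8 T barcodes it lies below at 3 UMIs (11.6% against 22.0%) and slightly above from 6 UMIs.

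In CD8 T barcodes the replication genes were lower in shSrsf10. Their sum was 1132 CPM in shCtrl (1058 to 1209) and 904.3 CPM in shSrsf10 (883.7 to 925.3), a log2 ratio of -0.32 (-0.42 to -0.22), and among barcodes with few keratin UMIs 1293 and 1080 CPM, a log2 ratio of -0.26 (-0.40 to -0.12). The mitosis sum depended on those keratin barcodes: it was 1322 and 1385 CPM in all CD8 T barcodes (0.07, -0.03 to 0.16), and 1648 and 1298 CPM in the 99 shCtrl and 966 shSrsf10 barcodes with few keratin UMIs (-0.34, -0.47 to -0.22). Removing the barcodes with tumour RNA thus turned the mitosis ratio from slightly above 0 to below it. Barcodes of neutrophils, described with the reference class further on, held 776.7 and 294.8 CPM of mitosis genes, a wider gap than this one. In all CD8 T barcodes 4 of 17 replication genes were called lower and none higher, and 3 of 19 mitosis genes higher and 2 lower, where 18.8% of all 10499 features were called higher and 18.7% lower. Among barcodes with few keratin UMIs, 1 replication gene was called higher and 4 lower, and 2 mitosis genes higher and 5 lower, where 21.8% of 7935 features were called higher and 23.2% lower.

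The 4 replication genes called lower in all CD8 T barcodes were Mcm3, Mcm6, Cdc6 and Ccne1. Mcm3 stood at 97.7 CPM in shCtrl and 58.1 CPM in shSrsf10 (log2 ratio -0.75, -1.10 to -0.38), and Mcm6 at 115.7 and 70.0 CPM (-0.73, -1.05 to -0.39). Ccne1, at 14.1 and 8.31 CPM, had 11 UMIs in shCtrl and an interval of -1.70 to 0.30, and Cdc6 likewise 11 UMIs, with a log2 ratio of -0.70 (-1.63 to 0.36). The MCM pair had intervals clear of 0, and the other pair did not. With few keratin UMIs the genes called lower were Mcm3 (-0.67), Pcna (-0.59), Gins2 (-0.64) and Ccne1 (-0.82), and Rrm2 was called higher, at 57.7 and 94.7 CPM (0.71, 0.06 to 1.45). Pcna, the most counted replication gene there, stood at 262.6 and 173.9 CPM.

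Of the mitosis genes, Mki67 was lowest relative to shCtrl in CD8 T barcodes with few keratin UMIs, at 115.4 CPM in shCtrl and 55.0 CPM in shSrsf10 (-1.07, -1.57 to -0.54), and it was called lower in all CD8 T barcodes too (-0.90). Kif11 was called lower in both, at -0.97 and -0.72. Top2a (-0.67), Aurkb (-0.84) and Cenpf (-0.95) were called lower with few keratin UMIs. Ube2c stood at 404 and 280.1 CPM there (-0.53, -0.79 to -0.26) but at 309.9 and 400.6 CPM in all CD8 T barcodes (0.37). Cenpe, on 3 and 67 UMIs, was called higher (1.23, -0.38 to 3.54), as was Kif20a, with 0 and 43 UMIs. Aurka was called higher in all CD8 T barcodes (1.12), on 11 and 247 UMIs, but had a log2 ratio of 0.17 with few keratin UMIs. There the mitosis genes called higher rested on at most 3 shCtrl UMIs each, and those called lower on 17 to 60. Hmgb2 (0.17), Tubb5 (-0.11) and Stmn1 (-0.17) differed little there.

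Thinned to 1000 UMIs, which left out 8 shCtrl and 18 shSrsf10 barcodes with few keratin UMIs, 22.0% of the shCtrl barcodes (13.97% to 31.9%) and 11.6% of the shSrsf10 barcodes (9.63% to 13.8%) had at least 3 mitosis UMIs. At least 3 replication UMIs were found in 17.6% (10.4% to 27.0%) and 9.18% (7.42% to 11.2%). The mitosis UMIs were concentrated differently: the 9 richest of 91 barcodes held 42.0% of them in shCtrl and the 94 richest of 948 held 69.5% in shSrsf10. A smaller share of shSrsf10 CD8 T barcodes therefore carried the mitosis RNA. The highest count in a thinned barcode was 14 UMIs in shSrsf10 and 9 in shCtrl. These maxima are over 948 and 91 barcodes, and a maximum tends to rise with the number of barcodes. Free tumour RNA differs here as well, since epithelial markers in barcodes with few keratin UMIs summed to 406.9 CPM in shCtrl and 182.7 CPM in shSrsf10. Sums of the marker lists of other immune cells differed in these barcodes too. The monocyte list summed to 715.7 and 3803 CPM and the neutrophil list to 458.9 and 175.1 CPM. The macrophage list summed to 210.7 and 49.0 CPM and the dendritic cell list to 187.6 and 44.5 CPM. In shCtrl the dendritic cell sum was Ccr7 alone, 1 of 6 markers. Whether these sums came from other cells or from the T cells themselves was not tested, nor was the part of free tumour RNA or of these sums in the result.

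In the other T barcodes, which include CD4 T cells (Cd4 at 140.7 and 106 CPM), both sums were near equal. The replication sum was 964.3 CPM in shCtrl and 958.9 CPM in shSrsf10 (log2 ratio -0.01, -0.10 to 0.08), and the mitosis sum 1237 and 1226 CPM (-0.01, -0.09 to 0.06). With few keratin UMIs the log2 ratios were 0.01 (-0.12 to 0.14) and 0.08 (-0.04 to 0.21). Behind the even sums the mitosis genes divided. In all barcodes 2 were called higher and 3 lower, and 1 replication gene (Ccne2, on 3 and 23 UMIs) higher, where 10.5% of 10304 features were called higher and 22.0% lower. Restricted to few keratin UMIs, 6 of 18 mitosis genes that passed the minimum were called higher and 4 lower, and none of 16 replication genes, where 15.3% of 7764 features were called higher and 25.1% lower.

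The mitosis genes called higher in these few-keratin barcodes were Ccnb2 at 53.5 and 117.6 CPM (1.14, 0.57 to 1.76), Cdc20 at 35.6 and 65.2 CPM (0.87, 0.16 to 1.66), Ccnb1 (0.74), Aurkb (0.96), Aurka (1.56) and Kif20a (1.27). Aurka and Kif20a had 3 UMIs each in shCtrl. Over the 19 mitosis genes, the intervals of 3 lay above 0 and of 4 below it. Those called lower were Mki67 at 110.9 and 43.3 CPM (-1.36, -1.84 to -0.86), Cenpf at 63.4 and 25.0 CPM (-1.34, -1.98 to -0.68), Kif11 (-0.92) and Top2a at 154.5 and 95.3 CPM (-0.70, -1.07 to -0.31). Ube2c, the most counted mitosis gene, was at 255.4 and 288.8 CPM (0.18, -0.10 to 0.46). In all barcodes Mki67 (-0.996), Cenpf (-0.81) and Nusap1 (-0.62) were lower and Ccnb2 (0.72) and Kif20a (0.62) higher. The division again followed length, with a rho of -0.73 over 18 mitosis genes against -0.34 over 7580 features, and a median log2 ratio over all features of -0.51 above 5000 nt. Relative to genes of like length, 3 members in all other T barcodes were called higher and none lower.

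Per barcode, thinned to 1000 UMIs and with few keratin UMIs, at least 3 mitosis UMIs were found in 11.4% of shCtrl (7.12% to 17.1%) and 7.87% of shSrsf10 other T barcodes (5.97% to 10.2%). At least 3 replication UMIs were found in 10.9% (6.67% to 16.4%) and 4.96% (3.46% to 6.86%). The intervals of the mitosis shares overlapped, and those of the replication shares did so narrowly. The 17 richest of 175 shCtrl barcodes held 61.5% of the mitosis UMIs, and the 68 richest of 686 shSrsf10 barcodes 76.4%. Neutrophil markers in these barcodes summed to 604 CPM in shCtrl and 5.16 CPM in shSrsf10, and their part in the result was not tested.

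**Figure D5:**
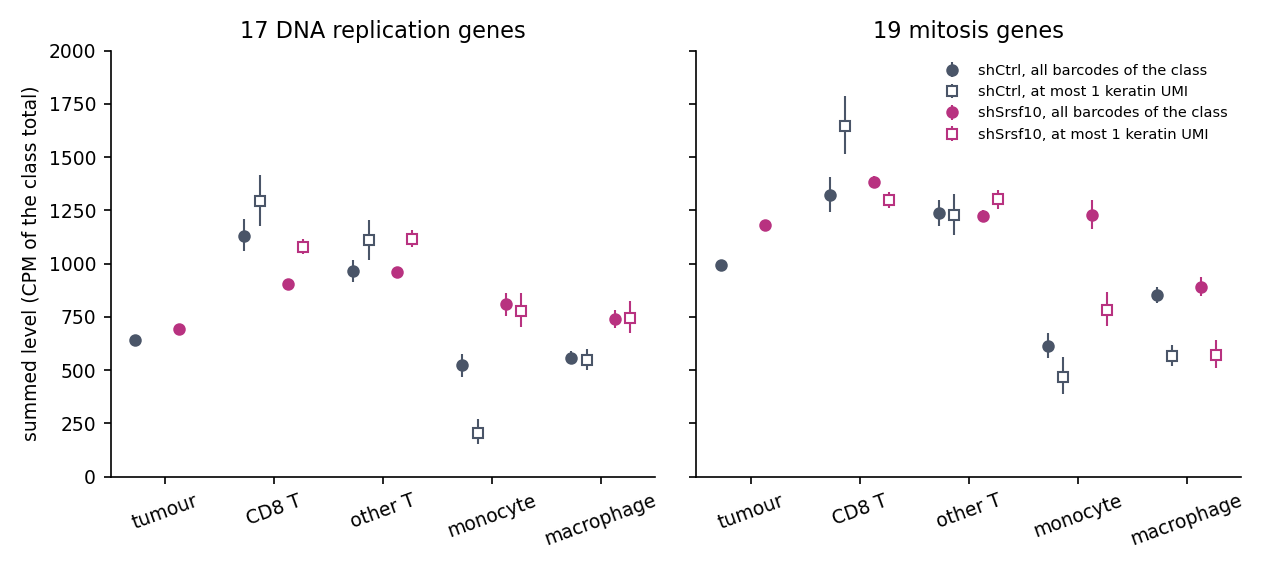
Summed level of the replication genes (left) and mitosis genes (right), in CPM of the class total, by class and library, for all barcodes (filled circles) and those with at most 1 keratin UMI (open squares), with 95% counting intervals. CD8 T barcodes have the highest mitosis level (1648 CPM in shCtrl with few keratin UMIs), and the monocyte class, called the Lyz2 class in the text, the lowest replication level (206.6 CPM).

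In the Lyz2 class the summed level of both lists was higher in shSrsf10. The replication sum was 521.6 CPM in shCtrl (469.6 to 577.8) and 808.2 CPM in shSrsf10 (755.1 to 864), a log2 ratio of 0.63 (0.45 to 0.81), and the mitosis sum 614 and 1229 CPM (1.00, 0.84 to 1.16). With few keratin UMIs the replication sum was 206.6 and 777.7 CPM (1.91, 1.49 to 2.36), on 52 and 376 UMIs, and the mitosis sum 468.8 and 781.9 CPM (0.74, 0.44 to 1.05), on 118 and 378 UMIs. In all barcodes 7 of 14 replication genes and 14 of 17 mitosis genes that passed the minimum were called higher and none lower, where 19.9% of 6216 features were called higher and 17.3% lower. Intervals there lay above 0 for 6 replication and 8 mitosis genes. With few keratin UMIs the genes called higher were 9 of 9 and 4 of 7, where 24.8% of 3579 features were called higher and 16.5% lower. In both counts a gene that passed the minimum mainly through shSrsf10 had to be higher.

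In all barcodes of the class the log2 ratios of the members called higher ran from 0.64 for Nusap1 to 2.10 for Kif20a. The most counted genes of the replication and mitosis lists were Pcna, at 47.7 CPM in shCtrl and 117.9 CPM in shSrsf10 with few keratin UMIs (1.31, 0.39 to 2.34), and Ube2c at 95.4 and 200.6 CPM (1.07, 0.42 to 1.78). Mcm3 (1.46), Mcm5 (2.68), Mcm7 (2.47), Tyms (2.72), Rrm2 (1.92) and Slbp (1.54) were called higher on 3 to 7 shCtrl UMIs each, as was Mcm6 (0.74), and Gins2 had 0 and 24 UMIs. Of the mitosis genes Ccnb2 (1.46), Ccna2 (0.74) and Top2a (0.93) were also called higher, as were Hmgb2 (0.62), Tubb5 (0.92) and Stmn1 (1.54). Neutrophil markers in these barcodes summed to 52230 CPM in shCtrl and 18070 CPM in shSrsf10, and 8 T cell markers to 11.9 and 173.7 CPM. Both libraries therefore hold different mixtures in this class, and the part of that in the result was not tested. Thinned to 1000 UMIs, the 97 shCtrl and 108 shSrsf10 few-keratin barcodes held a mean of 0.237 and 0.398 replication UMIs each, and of 0.289 and 0.296 mitosis UMIs, on 23 to 43 UMIs of a list per library. Over all thinned barcodes of the class the mitosis means were 0.308 and 0.587. Per thinned few-keratin barcode the mitosis genes were therefore about equal, with at least 1 mitosis UMI in 15.5% of shCtrl barcodes (8.92% to 24.2%) and 12.96% of shSrsf10 barcodes (7.27% to 20.8%).

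In macrophage barcodes the summed replication level was higher in shSrsf10 and the mitosis level about equal, while per thinned few-keratin barcode neither list was higher. The replication sum was 558.7 CPM in shCtrl (530.1 to 588.4) and 739.1 CPM in shSrsf10 (698.6 to 781.3), a log2 ratio of 0.40 (0.29 to 0.51), and with few keratin UMIs 546.5 and 745.1 CPM (0.45, 0.25 to 0.64). It was 0.01 among barcodes that met only 1 class rule. Thinned to 1000 UMIs, the 282 shCtrl and 107 shSrsf10 few-keratin barcodes held a mean of 0.472 and 0.458 replication UMIs each, and at least 3 were found in 4.96% (2.74% to 8.19%) and 4.67% (1.53% to 10.6%). The mean over all thinned macrophage barcodes was 0.511 and 0.677 replication UMIs, so the difference per barcode was not seen once barcodes with keratin UMIs were left out. The mitosis sum had a log2 ratio of 0.06 (-0.03 to 0.16) in all barcodes and 0.01 (-0.20 to 0.22) with few keratin UMIs. In all barcodes 5 of 16 replication genes were called higher and none lower, and 1 of 19 mitosis genes higher and 2 lower, where 11.3% of 9287 features were called higher and 16.2% lower.

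The 5 replication genes were Mcm7 at 57.0 and 90.8 CPM (0.67), Rrm2 at 23.8 and 45.1 CPM (0.92), Tyms at 48.0 and 72.4 CPM (0.59), Gins2 at 26.6 and 49.3 CPM (0.89) and Uhrf1 at 16.8 and 28.5 CPM (0.76). The same 5 were called higher with few keratin UMIs, at log2 ratios from 0.75 to 0.98, where 12.2% of 5869 features were called higher and 22.3% lower. Pcna stood at 87.1 and 107.4 CPM (0.30). Of the mitosis genes Tpx2 was called higher (0.68), and Bub1 (-0.81) and Cenpf (-0.62) lower, in all barcodes, and Cdk1 (0.78) and Nusap1 (0.62) higher with few keratin UMIs. Ube2c was at 283.4 and 243.4 CPM (-0.22) in all barcodes. The class differs in makeup between the libraries. With few keratin UMIs, 4 Kupffer cell markers, of the resident liver macrophages, summed to 980.3 CPM in shCtrl and 134.4 CPM in shSrsf10, 6 monocyte markers to 2497 and 4621 CPM, and 8 T cell markers to 240.2 and 975.6 CPM, while 6 neutrophil markers stood at 142.3 and 149.8 CPM. In all barcodes the neutrophil markers were at 102.7 and 388.2 CPM. The part of these in the result was not tested.

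A reference class of neutrophil-type barcodes gives a level to set these sums beside. It held barcodes with at least 20 UMIs of S100a8 and S100a9, no Cd3, at most 1 keratin UMI and at most 1 C1q UMI. It can overlap the Lyz2 class. Mature neutrophils do not divide, but the rule does not select for maturity. Free RNA, mixed barcodes and dividing precursors could each enter its level, and their parts were not tested. On 104 shCtrl and 218 shSrsf10 barcodes, with medians of 736 and 811.5 UMIs, the replication sum was 299.5 and 285.5 CPM and the mitosis sum 776.7 and 294.8 CPM. In shCtrl the few-keratin Lyz2 levels of replication (206.6 CPM) and mitosis (468.8 CPM) lay below these. So did the few-keratin macrophage mitosis level (567 CPM), and none of them stands above the reference there. In shSrsf10 the same levels (777.7, 781.9 and 572.3 CPM) lay above the neutrophil levels. The shCtrl neutrophil mitosis level rests on 83 UMIs and the replication level on 32. The few-keratin Lyz2 ratios thus compare a shCtrl level below the reference with a shSrsf10 level above it. The few-keratin T levels lay above the neutrophil levels for both lists in both libraries. The neutrophil replication levels were alike, but the mitosis levels differed between the libraries by more than the T mitosis levels did (1648 and 1298 CPM in CD8 T, 1228 and 1302 CPM in other T, with few keratin UMIs). If T barcodes held the neutrophil level in CPM as background, the mitosis sum above it would be the higher in shSrsf10 in both T classes. Thinned to 1000 UMIs, mean mitosis UMIs per barcode were 1.31 and 0.792 in few-keratin CD8 T and 0.697 and 0.649 in other T. In neutrophil barcodes they were 0.381 and 0.264, on 8 and 14 UMIs. By these means the part above the neutrophil level would be lower in shSrsf10 in CD8 T and higher in other T. The few-keratin T barcodes were deeper, with medians of 2657 and 2665 UMIs in CD8 T and 1693 and 1963 UMIs in other T. Whether the neutrophil level in CPM holds for them was not tested. The direction of the CD8 T mitosis ratio and the evenness of the other T mitosis sums are therefore not settled. Thinned to 1000 UMIs, 1 of 21 shCtrl and 2 of 53 shSrsf10 neutrophil barcodes had at least 3 mitosis UMIs and fewer than 3 replication UMIs.

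Genes outside the lists that control the same steps were counted by fixed groups. In tumour barcodes, of 19 G1 cyclins, kinases and E2F genes 1 was called higher and 2 lower, with a median log2 ratio of -0.18, where 9.59% of all features were called higher and 12.4% lower, so the group's count is near that of all features. The lowest were E2f5, a repressor E2F, at 5.34 and 2.75 CPM (-0.96, -1.15 to -0.77), and Rb1, the retinoblastoma gene, at 2.50 and 1.64 CPM (-0.61). The highest were Ccnd2 (0.60), on 50 and 67 UMIs, and E2f7 (0.36). Of 9 measured inhibitor and p53 pathway genes none was called, and Cdkn2c, an inhibitor of Cdk4 and Cdk6, came closest at 18.3 and 27.5 CPM (0.58).

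Of 13 MuvB, Foxm1 and checkpoint genes only Wee1, the kinase that holds Cdk1 inactive, was called in tumour barcodes, at 17 CPM in shCtrl and 9.65 CPM in shSrsf10 (-0.82, -0.92 to -0.71). Lin54, the MuvB subunit that reads the CHR, was at 3.36 and 2.29 CPM (-0.55), while Foxm1 (0.05) and Mybl2 (-0.04) had intervals that included 0. Of 23 other replication genes Tk1, thymidine kinase, was called higher, at 46.9 and 76.0 CPM (0.70, 0.65 to 0.74), with a group median of 0.19. Of 31 other mitosis genes none was called, with a median of 0.07 and extremes at Cks2 (0.36) and Smc2 (-0.35).

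In CD8 T barcodes with few keratin UMIs, 23 other replication genes had a median log2 ratio of -0.42, with 1 called higher and 8 lower, where 21.8% of all features were called higher and 23.2% lower. The lowest were Chaf1a (-1.03), a histone chaperone subunit, and Orc6 (-0.98), and the highest Prim1 (1.39), a primase. In the G1 group Cdk6 was the lowest, at 132.8 CPM in shCtrl and 32.1 CPM in shSrsf10 (-2.05), and Ccnd3, the main D cyclin of T cells, the highest, at 52.0 and 121.6 CPM (1.23). Cdkn2d, an inhibitor of Cdk4 and Cdk6, stood at 34.6 and 96.2 CPM (1.47). Of 31 other mitosis genes 4 were called higher and 4 lower, both under those shares of all features, with a median of -0.08. In few-keratin other T barcodes the replication group had a median of 0.22 and the other mitosis group 0.20, and the difference between the T classes was not tested.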

How the data were processed

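The values are UMI counts, deposited by the authors as integers that were not normalized, for each gene in each barcode. Cell Ranger 6.1.0 and build mm10 are named per the submitters' processing notes, and the aligner settings, annotation and cell calling are not given in the sources used here. The lowest total in both files was 500 UMIs per barcode, and the barcode strings are 17 characters long, and whether they were re-encoded before deposit is unknown. The conflict between the 5' and 3' kit in the labels could not be settled, so the end of the transcript that was counted is unknown.

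The members, classes and gene lists were chosen with earlier results of these data known. UMIs were summed over the barcodes of a class and divided by the class total (CPM). A barcode could meet more than 1 class rule, as 100 shCtrl and 137 shSrsf10 barcodes did, and 2534 and 1489 met none. Levels have exact Poisson intervals, ratios exact conditional binomial intervals and shares exact Clopper-Pearson intervals, at 95% and for counting error only. Members with at least 20 UMIs over both libraries and a ratio past 1.5-fold are called, and values are printed for these and for the most counted member of each role, with further members of the tumour class named after their values were seen. Of each control gene group, up to 2 genes at either end with at least 50 UMIs are named by rule, and Foxm1, Mybl2 and Lin54 for their role. Doublets were not removed. A Scrublet run (scanpy 1.11.5) that left out the highest scores, 787 shCtrl and 456 shSrsf10 barcodes, was an alternative. Thinning drew UMIs without replacement. Promoter windows are from RefSeq (GRCm38.p6) and transcript lengths from GENCODE vM21. The ratio intervals were tested on simulated counts with known ratios. Those counts were independent Poisson draws, as the intervals assume, so the test does not cover clustering of UMIs in barcodes. Python 3.11.15, numpy 2.4.6, scipy 1.17.1 and pandas 2.3.3 were used. Alternatives covered centring, weighting of barcodes, filters, doublets, class overlap and strictness, depth, thinning, count minimum and fold. Tumour barcodes rest on 134144973 shCtrl and 118239156 shSrsf10 UMIs, and the immune classes on 703569 to 8058161 UMIs per library, so intervals are far wider there.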

Additional observations from a re-analysis of the deposited data

Results flagged for a closer look

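Several members had counting intervals on opposite sides of 0 in different classes of the same libraries, over all barcodes of each class. With 1 library per group the difference between the classes was not tested, and the immune classes hold tumour RNA as described above. The log2 ratio of Mcm3 was 0.16 in tumour barcodes and -0.75 in CD8 T barcodes, against 1.19 in the Lyz2 class and 0.43 in macrophage barcodes. Top2a was at -0.36 in CD8 T and -0.45 in other T barcodes and at 0.99 in the Lyz2 class. Ccnb2 was at -0.07 in tumour barcodes, 0.72 in other T barcodes and 1.31 in the Lyz2 class. Ube2c was at 1.16 in the Lyz2 class and -0.22 in macrophage barcodes. Nusap1 was at 0.14 in tumour barcodes and -0.62 in other T barcodes.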

How the results depend on the processing

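No paired analysis was possible because each group has 1 library, and for the same reason none was left out. The depth of the immune classes, the keratin-bearing barcodes in them and the length slope limit what can be read, and the cause of the shifts below was not tested unless the alternative removes barcodes by construction. Values are log2 ratios of the replication and mitosis sums.

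In tumour barcodes both sums stayed above 0 in the alternatives that follow, except by depth. Replication was 0.17 and mitosis 0.30 relative to the median of all features, 0.14 and 0.29 as a mean over barcodes, 0.10 and 0.23 without the highest Scrublet scores, 0.10 and 0.23 under stricter class rules, and 0.14 and 0.26 thinned. Mitosis was 0.23 among barcodes of 1 class and 0.30 without the 5% deepest barcodes. By depth, added after seeing the data, replication was 0.32, 0.087, -0.14 and 0.13 from the shallowest range to the deepest, and mitosis 0.50 in the first, -0.10 in the third and 0.053 in the deepest. Members called went from 0 to 1 (Ccne1, lower) without the highest Scrublet scores and relative to genes of like length.

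In CD8 T barcodes replication stayed below 0, at -0.44 as a mean over barcodes. Mitosis turned below 0 in part of the alternatives, at -0.36 as a mean over barcodes, -0.24 without the highest Scrublet scores, -0.28 among barcodes of 1 class, -0.23 without the 5% deepest, -0.19 thinned and -0.34 with few keratin UMIs. It stayed above 0 in the others, at 0.071 relative to the median, 0.067 with a filter on genes and mitochondrial share and 0.045 under stricter rules. Members called went from 9 to 17 as a mean over barcodes (3 higher, 14 lower) and to 2 at 2-fold.

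In other T barcodes replication was 0.084 relative to the median and -0.17 thinned, and mitosis 0.079 relative to the median, -0.13 as a mean over barcodes, 0.077 among barcodes of 1 class, -0.11 under stricter rules, -0.26 thinned and 0.085 with few keratin UMIs. Members called went from 6 to 12 as a mean over barcodes, 11 among barcodes of 1 class, 0 at 2-fold, 10 with few keratin UMIs and 3 relative to genes of like length.

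In the Lyz2 class replication was 1.03 without the highest Scrublet scores, 1.90 among barcodes of 1 class, 1.10 without the 5% deepest, 0.41 thinned and 1.91 with few keratin UMIs. Mitosis was 0.73 as a mean over barcodes, 0.57 without the highest Scrublet scores, 0.67 among barcodes of 1 class, 0.48 under stricter rules and 0.74 with few keratin UMIs. Members called went from 23 to 12 under stricter rules, 3 thinned and 11 at 2-fold.

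In macrophage barcodes replication was 0.014 among barcodes of 1 class and 0.52 without the 5% deepest, and mitosis 0.16 as a mean over barcodes, 0.23 under stricter rules, 0.57 without the 5% deepest and -0.13 thinned. Members called went from 9 to 16 as a mean over barcodes and without the 5% deepest, 3 thinned and 0 at 2-fold.

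Single called members that turned were Cenpe (-0.13, thinned) in CD8 T barcodes and Ccnb2 (-0.092, thinned) in other T barcodes. In the Lyz2 class they were Mcm3 (-0.18), Cdk1 (-0.73), Tpx2 (-0.55) and Nusap1 (-0.37) as a mean over barcodes, Cdk1 (-0.056) without the highest Scrublet scores, and Aurka (-0.036), Plk1 (-0.48) and Tpx2 (-0.14) under stricter rules. In macrophage barcodes Tpx2 was at -0.31 as a mean over barcodes, -0.46 among barcodes of 1 class and -0.33 with few keratin UMIs. The 5 replication genes called higher in macrophage barcodes did not turn under any alternative with at least 20 UMIs.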

Other observations

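In few-keratin CD8 T barcodes Hmgb2 had a UMI in 67.7% of shCtrl and 78.6% of shSrsf10 barcodes, and Stmn1 in 48.5% and 32.3%, at median depths of 2657 and 2665 UMIs. Thinned to 1000 UMIs, the shares were 58.2% (47.4% to 68.5%) and 59.1% (55.9% to 62.2%) for Hmgb2, which did not differ beyond counting error, and 34.1% (24.4% to 44.8%) and 20.04% (17.5% to 22.7%) for Stmn1. In few-keratin other T barcodes the shares were 60.9% and 72.1% for Hmgb2 and 24.2% and 21.5% for Stmn1, at medians of 1693 and 1963 UMIs, and thinned they were 46.9% and 54.4% for Hmgb2 and 14.9% and 11.7% for Stmn1.

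The balance between the lists also differed by class. The mitosis sum over the replication sum was 1.55 in shCtrl and 1.70 in shSrsf10 tumour barcodes. In few-keratin barcodes it was 1.27 and 1.20 for CD8 T, 1.11 and 1.16 for other T, 1.04 and 0.77 for macrophages, and 2.27 and 1.00 for the Lyz2 class. In all barcodes it was 1.17 and 1.53 for CD8 T, the opposite direction, 1.28 and 1.28 for other T, 1.53 and 1.21 for macrophages, and 1.18 and 1.52 for the Lyz2 class, which also turned. No interval was computed for these quotients, so small gaps between the libraries cannot be told from counting error. The few-keratin shCtrl quotients rest on 571 mitosis and 448 replication UMIs in CD8 T and 620 and 560 in other T. In the Lyz2 class that quotient rests on 118 and 52 UMIs.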
